A study of Gallus gallus with 21 samples.

Results

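CTRL replicate 1 and KO replicate 8 are 2 of the 21 chick neural tube libraries of this study, and they were chosen by measured values, namely gene counts that stand far from those of the other 19 libraries and a high content of W transcripts. They came from opposite groups: CTRL replicate 1 was 1 of 9 libraries with the genotype WT, and KO replicate 8 was 1 of 12 libraries with MOXD1 knocked out by CRISPR/Cas9. All 21 libraries held the RNA of the trunk portion of neural tubes. Constructs were injected into the tube at HH stage 10+/11, a Hamburger Hamilton stage of the chick embryo, and electroporated in ovo on one side, so edited and unedited cells can be mixed in 1 library. What the control embryos received, and which share of cells was edited, is not given in the sources used here. A stranded mRNA kit with 14 PCR cycles was used on 50 ng of total RNA for each library. Because measured values chose both libraries, everything that sets them against the other 19 is given as a description, with no test.

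The neural tube of the trunk becomes the spinal cord. Its dorsal rim releases the neural crest, migrating cells that form peripheral neurons, glia and pigment cells. MOXD1 is related to dopamine beta-hydroxylase, a copper-dependent enzyme that makes noradrenaline. In birds, females carry one Z and one W chromosome and males carry a pair of Z chromosomes, so transcripts of W genes mark RNA from female embryos. The sex of the embryos is not stated in the labels. The deposited gene IDs could not be paired with symbols, so MOXD1 itself and markers of the neural tube, neural crest, blood, somite or other tissues were not examined, and genes are given here by ID or by position on the GRCg6a assembly.

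Both libraries held W transcripts at the level of other libraries that hold them. Counts on W genes made up 0.234% of CTRL replicate 1 (exact 95% binomial interval 0.232% to 0.236%) and 0.215% of KO replicate 8 (0.213% to 0.217%). Among the other 19 libraries, 13 held W transcripts, at 0.180% to 0.239%. Both were therefore inside the range of W-holding libraries. Set against the median of those 13, W genes (40 tested) differed by a median of -0.092 on the log2 scale in CTRL replicate 1 and -0.039 in KO replicate 8. None was called low or high by the rule given below for all genes, which takes all 19 libraries as reference. Since 6 of the 19 held almost no W transcripts, a W gene could hardly be called low, so the lack of low calls says little. The 619 tested Z genes had medians of -0.027 and 0.054. In CTRL replicate 1, 10 of them were called low and 6 high, where 2.36% and 1.35% of all tested genes were. In KO replicate 8, 10 were low and 7 high, where 2.96% and 1.55% of all tested genes were. Of the Z genes, 1.13% were low in both libraries and 0.485% high in both, against 1.85% and 0.673% of all tested genes. The 25 mitochondrial genes had medians of -0.018 and -0.012, again with none called. At the shares of all tested genes, so few genes would hold hardly any call, so this says little. Such intervals cover counting error only, since reads copied by PCR are not independent molecules.

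None of the usual measures of a library given here put both of the pair outside the range of the other 19, but several put 1 of them outside. Total counts were 19213075 in CTRL replicate 1 and 18585928 in KO replicate 8, inside the range of 16164404 to 21133788 over all 21. The number of genes at at least 1 CPM, the count scaled to a common library size, was 13030 in CTRL replicate 1, above the 12538 to 12979 of the other 19, and 12662 in KO replicate 8, inside it. The 20 most abundant genes held 14.0% of the counts of CTRL replicate 1, inside the 12.3% to 20.5% of the other 19. In KO replicate 8 they held 12.0%, below that range. The library-size factor of the trimmed mean of M values (TMM) was 1.09 in CTRL replicate 1, above the range of 0.946 to 1.07 of the other 19, and 1.06 in KO replicate 8, inside it.

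Gene by gene the pair stood far from the rest. For each of the 13809 tested genes, the log2 difference was the CPM of a library plus 1, over the median CPM of the other 19 plus 1. A gene was called low or high where that difference was at least 4-fold and the value also lay outside the range of the 19. CTRL replicate 1 had 326 low genes (2.36% of those tested) and 186 high genes (1.35%). KO replicate 8 had 409 low genes (2.96%) and 214 high genes (1.55%). When each of the other 19 was set in the same way against the remaining 18, the counts ran from 0 to 32 low genes (0.0% to 0.232%) and from 0 to 61 high genes (0.0% to 0.442%). Since the same kind of value chose both libraries, these shares describe them and support nothing further. In bulk RNA, fewer cells of a type and less RNA per cell cannot be told apart, here and in all that follows.

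**Figure D1:**
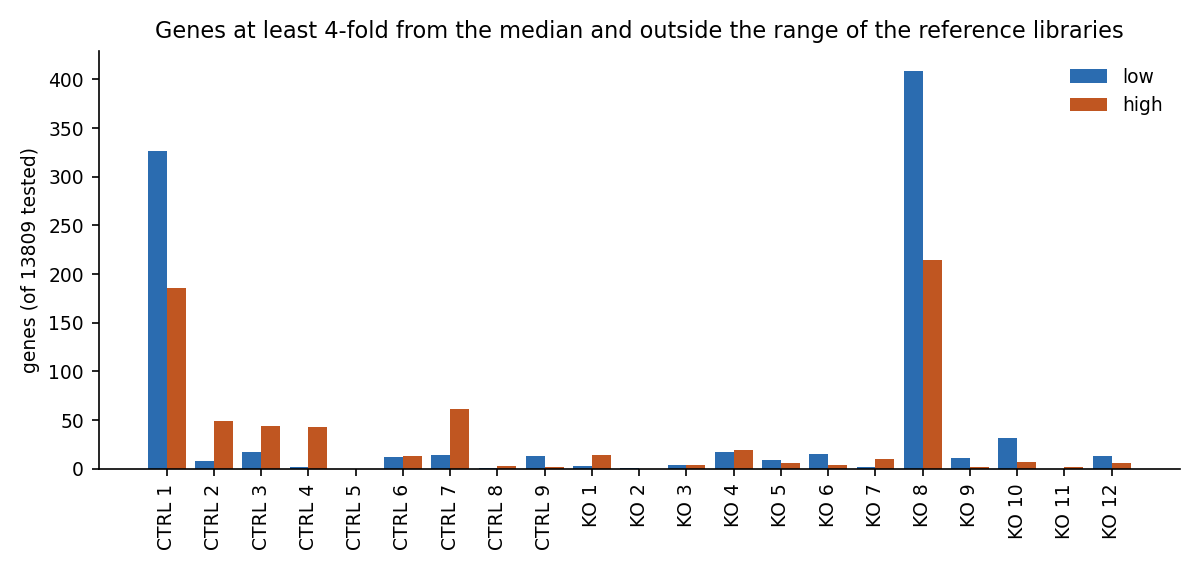
Number of tested genes called low (blue) or high (orange) in each of the 21 libraries, where a call is at least 4-fold from the median of the reference libraries and outside their range. CTRL replicate 1 (326 low, 186 high) and KO replicate 8 (409 low, 214 high) stand above the other 19, whose highest counts are 32 low and 61 high.

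The difference reached beyond the genes called. The SD of the log2 difference over all tested genes was 0.883 in CTRL replicate 1 and 0.925 in KO replicate 8, against 0.328 to 0.606 in the other 19. Within 2-fold of the median lay 85.6% of the genes of CTRL replicate 1 and 82.9% of those of KO replicate 8, against 90.5% to 98.9%. For decreases, the excess over the other libraries was larger at large folds. At 2-fold or more, 1080 genes were down and 902 up in CTRL replicate 1, and 1441 down and 917 up in KO replicate 8, while the highest counts among the 19 were 718 down and 716 up. At 16-fold or more, 68 genes were down and 20 up in CTRL replicate 1, and 71 down and 7 up in KO replicate 8, while the highest counts among the 19 were 19 and 8. At 64-fold or more, 18 and 16 genes were down and 0 up, against at most 4 down and 1 up in any of the 19. In the 13 W-holding libraries, the highest counts of genes down were 2 at 16-fold and 0 at 64-fold, so the higher values came from the 6 libraries without W transcripts. The steepest differences were thus decreases in both libraries.

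The 2 libraries shared most of their low genes, but not most of their high genes. Of the tested genes, 256 were low in both (1.85%), which is 78.5% of the low genes of CTRL replicate 1 and 62.6% of those of KO replicate 8. High in both were 93 genes (0.673%), or 50.0% and 43.5% of the high genes of each. Genes called in only 1 of them mostly leaned the same way in the other. Of the 153 genes low in KO replicate 8 alone, 146 were below the median in CTRL replicate 1 too and 119 were at least 2-fold below it. Of the 70 low in CTRL replicate 1 alone, 66 were below the median in KO replicate 8 and 59 at least 2-fold. Of the 93 high in CTRL replicate 1 alone, 82 were above the median in KO replicate 8, and of the 121 high in KO replicate 8 alone, 114 were above it in CTRL replicate 1. Of the 784 genes called in either library, 757 (96.6%) lay on the same side in both, against 71.3% of all tested genes. The 784 include the 256 low and 93 high in both, which lie on the same side by construction. Just inside the threshold, the weaker of a gene's 2 differences was -2.0034 for low genes and 2.0061 for high genes, and just outside it -1.9965 and 1.9932.

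Over all tested genes, the differences of both libraries had a Pearson r of 0.783 and a Spearman rho of 0.630. Both libraries were set against the same median of 19, which by itself makes differences correlate, and genes are not replicates, so these coefficients carry no p. By Pearson's r this was the highest of all 210 pairs of libraries, each against the median of the libraries in neither the pair nor the 2, the next being 0.671 for KO replicate 8 with CTRL replicate 7. By rank it was the third: rho was 0.673 for KO replicate 8 with CTRL replicate 7 and 0.672 for KO replicate 10 with KO replicate 12. Pearson's r depends on the spread of the differences. That spread was wide in these 2 libraries (SD 0.883 and 0.925, against 0.328 to 0.606), which were chosen for standing far from the 19. The place of the pair among the 210 is therefore a description and no sign of a special likeness. Over the 13025 genes called in neither library, r was 0.630 and 69.8% of the genes lay on the same side. Pearson's r was highest in abundant genes. It was 0.679 among genes with a median under 3 CPM in the 19, 0.782 from 10 to 100 CPM, 0.920 from 100 to 1000 CPM and 0.936 at 1000 CPM and over. The differences also spread most in the last class, where 10 of 77 genes were low in both. Their SD there was 1.87 in CTRL replicate 1 and 1.75 in KO replicate 8, against 0.735 and 0.834 from 10 to 100 CPM. Since r depends on that spread, it does not show by itself that abundant genes were closer.

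**Figure D2:**
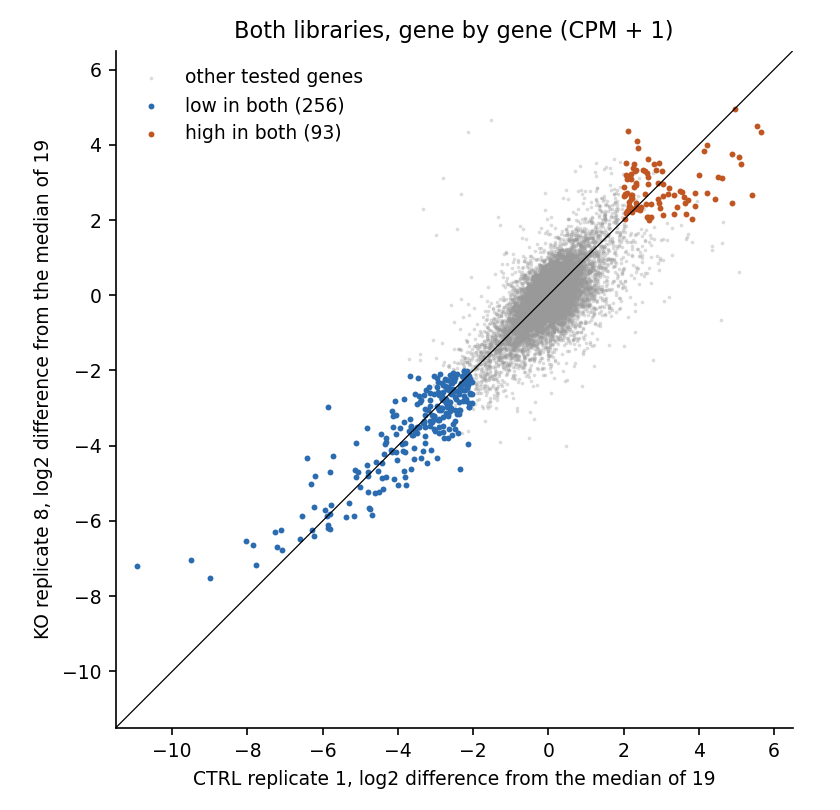
Log2 difference from the median of the other 19 libraries in CTRL replicate 1 (horizontal) and KO replicate 8 (vertical), 1 point per tested gene, with the line of equal values. The 256 genes low in both (blue) and 93 high in both (orange) lie along the line, and 2 genes were low in CTRL replicate 1 and high in KO replicate 8.

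A measure that needs no reference gave the distance between any 2 libraries, namely the SD over genes of the log2 ratio of their CPM plus 1. CTRL replicate 1 and KO replicate 8 were 0.597 apart. The 171 pairs that can be formed among the other 19 were 0.347 to 0.889 apart, with a median of 0.591, and 85 of them were further apart than these 2 libraries. The 38 pairs of either library with 1 of the 19 were 0.708 to 1.17 apart, with a median of 0.993. The 2 libraries therefore lay as far from each other as a usual pair of the 19, while each lay further than that from every one of the 19. The nearest of the 19 to both was CTRL replicate 7, at 0.733 from CTRL replicate 1 and 0.708 from KO replicate 8. Counted in genes at least 4-fold apart, CTRL replicate 1 and KO replicate 8 differed at 124 genes (0.898%), pairs among the 19 at 15 to 470 with a median of 120, and mixed pairs at 307 to 1109.

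**Figure D3:**
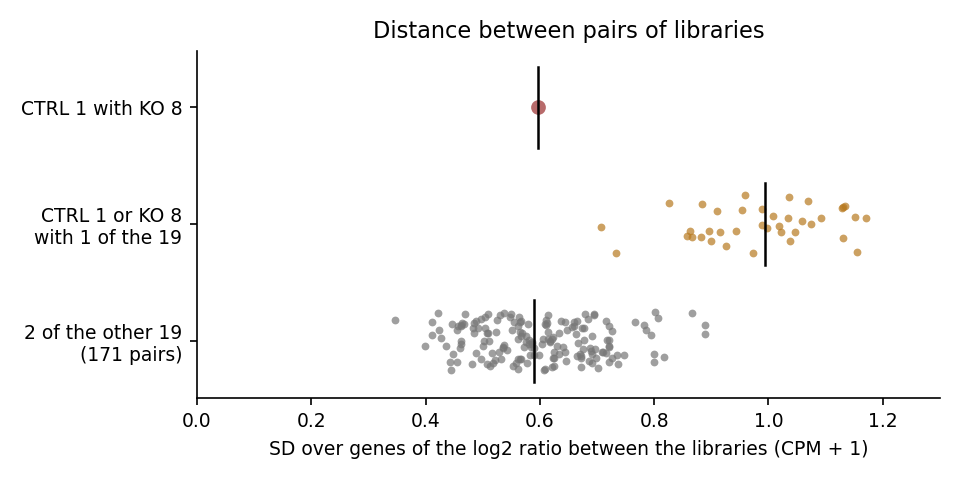
SD over the tested genes of the log2 ratio between 2 libraries, 1 point per pair, with the median of each kind as a black line. The pair of CTRL replicate 1 with KO replicate 8 (0.597) sits at the median of pairs among the other 19 (0.591), and the 38 mixed pairs lie at 0.708 and above.

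The genes low in both leaned toward well expressed genes, but not all were abundant: 27 had 3 to 10 CPM and 126 had 10 to 100 CPM. Of the 256, 103 reached 100 CPM or more as their median over the other 19 and 10 reached 1000 CPM. Only genes above about 3 CPM can be called low with 1 CPM added, so shares are given within abundance classes. Low in both were 1.31% of the 2063 genes with 3 to 10 CPM, 1.77% of the 7108 with 10 to 100 CPM, 4.68% of the 1987 with 100 to 1000 CPM and 12.99% of the 77 with 1000 CPM or more, the last being 10 genes. The share of genes called low thus grew with abundance under this rule. With 1 CPM added, a weak gene needs a larger fall in CPM to be called than an abundant one. The classes were therefore not called on equal terms. With 0.25 CPM added, 345 genes were low in both. How the shares per class change with that setting was not examined. Per kilobase of exon the order was the same, from 1.53% of genes with 1 to 10 CPM per kilobase to 7.03% of those with 100 or more, or 49 of 697.

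The high genes had the opposite profile. High in both were 1.71% of the 2574 genes under 3 CPM, 1.65% of those with 3 to 10 CPM, 0.197% of those with 10 to 100 CPM and 0.050% of those with 100 to 1000 CPM. High calls favoured weak genes in other libraries too. The highest share in any 1 of the 19 was 1.32% under 3 CPM, 0.969% from 3 to 10 CPM and 0.197% from 10 to 100 CPM. Counting every high gene of a library, shared or not, CTRL replicate 1 had 3.46% and KO replicate 8 had 3.19% under 3 CPM. From 3 to 10 CPM these shares were 3.15% and 3.64%, and from 10 to 100 CPM they were 0.422% and 0.760%. None of the 77 most abundant genes was high in either library. The typical level over the other 19, taken as the median gene of each list, was 3.59 CPM for the 93 high genes, 60.2 CPM for the 256 low genes and 23.03 CPM for all tested genes. For the tested genes with at least 3 CPM, about the level needed for a low call, it was 33.3 CPM. Of the 93, 18 were under 1 CPM and 1 was at 100 CPM or more in the other 19, and 12 had no count in at least 1 of these 19. From 100 to 1000 CPM, the share of high genes in CTRL replicate 1 (0.101%) and KO replicate 8 (0.151%) was below the highest share among the 19 (0.302%).

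**Figure D4:**
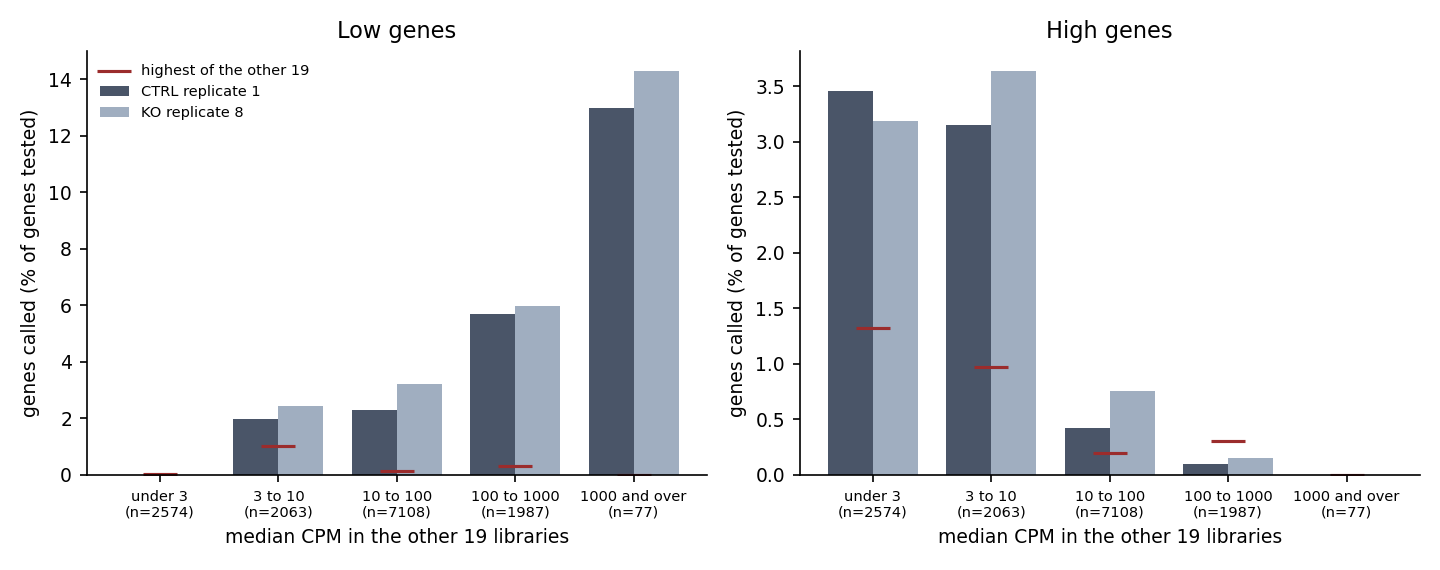
Share of tested genes called low (left) or high (right) by the median CPM of the gene in the other 19 libraries, for CTRL replicate 1 (dark bars) and KO replicate 8 (light bars), with the highest share of any of the 19 as a red mark; n is the number of genes per class, and the vertical scales differ. Low shares reach 12.99% and 14.3% at 1000 CPM and over, while high shares are 3.15% to 3.64% under 10 CPM and at or below 0.760% above it.

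Most low genes kept some transcript. The median gene among the 256 had 8.15% of its usual CPM in CTRL replicate 1 and 6.79% in KO replicate 8, and the values ran from 0.0% to 24.04% and from 0.266% to 23.4%. Residues were unequal between genes: 30 of the 256 were under 1% in CTRL replicate 1 and 26 in KO replicate 8, while 94 kept 10% to 25% in KO replicate 8. In both libraries at once, 70 genes were under 5% and 32 under 2%. No count at all was found for 5 of the genes in CTRL replicate 1 and for 0 in KO replicate 8. With 1 CPM added, 225 of the 256 genes were within 2-fold between both libraries, but the 53 genes under 1 CPM in both are so by construction. On CPM with nothing added, 146 of the other 203 were within 2-fold. The 93 high genes had a median of 8.67 times the usual CPM in CTRL replicate 1 and 9.78 times in KO replicate 8, with 64 of the 93 within 2-fold between both.

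Summed over all 256 genes, the low genes reached 5323 CPM in CTRL replicate 1, and in KO replicate 8 they reached 4704 CPM. In the other 19 the sum ran from 31416 CPM in CTRL replicate 7 to 108882 CPM in KO replicate 10, with a median of 74318 CPM. Without the single most abundant of them, the sums were 4244 and 4068 CPM against 24273 to 67928 CPM. The 93 high genes gave 5988 CPM and 5971 CPM, against 272 CPM in KO replicate 10 to 2183 CPM in KO replicate 1 and a median of 752 CPM. Neither sum overlapped the other 19, which the choice of genes fixes.

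The most abundant of the low genes was ENSGALG00000030712, on chromosome 33 from 7292614 to 7310596 on the plus strand, with 53 exon records in the annotation and no overlap with another annotated gene. It was at 1079 CPM in CTRL replicate 1 (exact 95% Poisson interval 1065 to 1094) and 636 CPM in KO replicate 8 (625 to 647). The other 19 ran from 7144 CPM in CTRL replicate 7 through a median of 22566 to 45519 CPM in KO replicate 10. Both libraries lay below all 19, by 20.9-fold and 35.5-fold from the median. Within the 19, the 8 CTRL libraries (7144 to 33462 CPM, median 25226) and the 11 KO libraries (14518 to 45519 CPM, median 21157) overlapped, and the log2 ratio of KO to CTRL was -0.05 ± 0.24 (SE), with an adjusted p of 0.977 in edgeR's quasi-likelihood test.

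The next most abundant was ENSGALG00000015253, on chromosome 1 from 85383662 to 85470351 on the minus strand, a gene of 5 exon records over 86.7 kb. It had 7 counts, or 0.333 CPM, in CTRL replicate 1 (0.134 to 0.687) and 329 counts, or 16.7 CPM, in KO replicate 8 (14.97 to 18.6). The other 19 ran from 1163 CPM in CTRL replicate 7 through a median of 2607 to 4246 CPM in KO replicate 12. The transcript was thus nearly missing from CTRL replicate 1, low in KO replicate 8 and abundant in each of the other 19. The log2 differences were -10.93 and -7.20, so the 2 libraries were themselves 3.73 apart on the log2 scale, the widest gap between them among the 256 low genes. The 8 CTRL (1163 to 3438 CPM, median 2869) and 11 KO libraries (1723 to 4246 CPM, median 2517) overlapped, with a log2 ratio of -0.0025 ± 0.19 (SE) and an adjusted p of 0.998 in edgeR's quasi-likelihood test.

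Among the high genes, ENSGALG00000000059, on chromosome 11 from 18842577 to 18845331 on the plus strand with 7 exon records, was at 470 CPM in CTRL replicate 1 and at 471 CPM in KO replicate 8. In the other 19 it ran from 41.5 CPM in CTRL replicate 6 through a median of 100.3 to 350 CPM in CTRL replicate 4. Both libraries were above all 19 and level with each other, at a log2 difference of 2.22 each. The 8 CTRL (41.5 to 350 CPM, median 103) and 11 KO libraries (42.6 to 313 CPM, median 92.6) overlapped, with a log2 ratio of 0.06 ± 0.45 (SE) and an adjusted p of 0.984 in edgeR's quasi-likelihood test.

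ENSGALG00000029140, on chromosome 25 from 2633647 to 2636309 on the plus strand, had 4 exon records and an exon length of 417 bases. Its level was 543 CPM in CTRL replicate 1 and in KO replicate 8 it was 445 CPM. The other 19 ran from 18.6 CPM in CTRL replicate 6 through a median of 81.4 to 200.1 CPM in KO replicate 4. Again both stood above all 19, with log2 differences of 2.72 and 2.44. The 8 CTRL (18.6 to 131 CPM, median 60.7) and 11 KO libraries (34.9 to 200.1 CPM, median 83.7) overlapped, with a log2 ratio of 0.42 ± 0.35 (SE) and an adjusted p of 0.853 in edgeR's quasi-likelihood test.

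In gene structure, the genes low in both spanned more of the genome. The median span of the 256 low genes was 24449 bases, against 14662 bases for the 11235 tested genes with at least 3 CPM. Low in both were 1.46% of those genes under 5 kb, 1.88% from 5 to 20 kb, 2.90% from 20 to 100 kb and 3.85% at 100 kb or more. Span was not matched for abundance here, and the low genes had a median of 60.2 CPM, against 33.3 CPM. The 153 genes low in KO replicate 8 alone had a median span of only 15634 bases. Their median level was 27.3 CPM, against 33.3 CPM for the tested genes with at least 3 CPM. The 70 genes low in CTRL replicate 1 alone had medians of 26858 bases and 39.5 CPM. The exons of the 256 low genes made up a median of 11.1% of the span, against 17.9%. Exon length itself differed less, with medians of 2666 bases for the low genes and 2524 bases for the genes with at least 3 CPM. The number of exon records, which counts the exons of all annotated transcripts, had a median of 11 against 13 and showed no single direction, since 3.64% of genes with 2 to 3 records, 1.72% of those with 31 to 99 and 3.78% of those with 100 or more were low.

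Against all tested genes, the high genes held fewer exon records and were split in span. Their median was 7 records, against 12 for all tested genes, and 24.7% of them had 3 or fewer, against 13.4%. Under 5 kb lay 31.2% of the 93, against 22.9% of all tested genes, and 11.8% spanned 100 kb or more, against 7.47%. These shares were not matched for abundance, and 44 of the 93 were under 3 CPM. Among tested genes with at least 3 CPM, only 10.2% had 3 or fewer records and 20.1% spanned under 5 kb. Few records and short spans were thus more common among weakly expressed genes in general. The share high in both was 0.917% of genes under 5 kb, 0.500% from 5 to 20 kb, 0.617% from 20 to 100 kb and 1.07% from 100 kb. Across the 11235 genes with at least 3 CPM, the signed difference was set by rank against abundance, exon length, span and exon records. The correlations ran from -0.16 to 0.09 in the 2 libraries, so structure and abundance ordered the bulk of genes weakly. For abundance the signs differed, at -0.160 in CTRL replicate 1 and 0.012 in KO replicate 8. They also differed for span, at -0.045 and 0.092.

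Both kinds of genes were found on most chromosomes, at unequal shares. Of the 30 chromosomes with at least 100 tested genes, 28 held a gene low in both and 26 a gene high in both. The highest share of low genes was 3.72% on chromosome 9, or 14 of 376, and the highest share of high genes was 1.76% on chromosome 21, or 4 of 227. Chromosome 1 held 46 low and 19 high genes of 1760. At the low end, the 7 chromosomes numbered 24 to 33 with at least 100 tested genes, a grouping made after their values were seen, held 6 low genes of 1458 (0.412%), against 1.85% of all tested genes. Their median CPM per chromosome ran from 23.97 to 32.9, and they held 11 high genes (0.754%, against 0.673%).

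Members of a list had a member of the same list beside them at a higher share than tested genes at large did. Of the 256 low genes, 30 (11.7%) were adjacent to another low gene in the order of tested genes, while 3.61% of all tested genes were adjacent to a low gene. Of the 93 high genes, 8 (8.60%) were adjacent to another high gene, against 1.33%. Within 1 Mb the shares were closer, at 55.1% against 43.5% for low genes and 24.7% against 21.6% for high genes. Most members, 226 low genes and 85 high genes, had no adjacent member. The signed differences of adjacent genes had a rank correlation of 0.162 in CTRL replicate 1 and 0.163 in KO replicate 8, inside the 0.051 to 0.301 of the other 19.

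The 30 adjacent low genes formed 13 runs, 8 of them on a single strand. The longest was 4 genes on the plus strand of chromosome 10, from 12005808 to 12107184, with a sum of 1.38 CPM in CTRL replicate 1 and of 1.53 CPM in KO replicate 8. In the other 19 the same 4 genes summed to 30.9 to 139 CPM, with a median of 76.9. A run of 3 genes on chromosome 3, from 57842516 to 57961623, gave 26.6 and 26.1 CPM against 336 to 1047 CPM. A run of 3 genes on chromosome 9, from 1225609 to 1289866, gave 10.8 and 14.0 CPM against 87.6 to 405 CPM. The longest run of high genes was 4 genes on chromosome 1, from 136223868 to 136276075, at 91.6 and 130 CPM against 0.316 to 48.7 CPM and a median of 12.1. In each of these runs both libraries lay outside the range of the other 19, as their choice requires of each gene, and the runs were chosen after their values were seen.

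The places where the 2 libraries parted were also clustered. Of the 124 genes at least 4-fold apart between them, 87 were higher in CTRL replicate 1 and 37 in KO replicate 8. Of the 37, 8 (21.6%) were adjacent to another of them, against 0.521% of all tested genes, and they lay in 3 groups of neighbours. On the minus strand of chromosome 2, from 32643254 to 32654714, 2 genes summed to 1.29 CPM in CTRL replicate 1 but to 222 CPM in KO replicate 8, where the other 19 spanned 1.25 to 57.4 CPM with a median of 20.5. On the plus strand of chromosome 33, from 7585953 to 7637089, 4 genes summed to 5.29 CPM and 205 CPM, against 5.06 to 68.5 CPM and a median of 34.2. On the minus strand of chromosome 7, from 16290965 to 16299201, 2 genes summed to 1.76 CPM and 81.2 CPM, against 6.60 to 50.9 CPM and a median of 18.4. KO replicate 8 was above all 19 at all 3 places, while CTRL replicate 1 was at the lower end of their range on chromosomes 2 and 33 and below it on chromosome 7. These places were chosen after their values were seen.

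The only 2 genes called in opposite directions belonged to those groups. The gene on the minus strand of chromosome 7 from 16297348 to 16299201 was at 0.048 CPM in CTRL replicate 1 but at 33.2 CPM in KO replicate 8, where the 19 spanned 0.119 to 13.2 CPM. The gene on the plus strand of chromosome 33 from 7601322 to 7604178 had no count in CTRL replicate 1, while KO replicate 8 had 48.6 CPM and the 19 spanned 0.714 to 24.4 CPM. No gene was high in CTRL replicate 1 and low in KO replicate 8.

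Of the 87 genes higher in CTRL replicate 1, 14 (16.1%) were adjacent to another, against 1.24% of all tested genes. The 2 runs of 3 genes among them held abundant transcripts that varied widely across all libraries. On the plus strand of chromosome 14, from 12503627 to 12511196, the run summed to 3209 CPM in CTRL replicate 1, to 597 CPM in KO replicate 8 and in the other 19 from 256 to 19208 CPM, the highest in CTRL replicate 2. On the minus strand of chromosome 1, from 197275578 to 197289402, it summed to 2459 and 487 CPM, and in the other 19 from 224 to 14936 CPM, again highest in CTRL replicate 2. In both runs the 2 libraries lay inside the range of the 19. In the other 4 runs, each of 2 genes, CTRL replicate 1 was above all 19, for example on the plus strand of chromosome 26 from 790416 to 813890, where it reached 77.9 CPM, KO replicate 8 reached 13.2 CPM and the 19 spanned 1.34 to 13.9 CPM. Of the 87 genes, 50 had CTRL replicate 1 above all 19, 31 had KO replicate 8 below all 19 and 14 had both libraries inside the range.

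The members also varied more than other tested genes among the 19 libraries. Those 19 supplied the median and range of every call, so this describes the genes and is no independent check. Among genes of 10 to 100 CPM, the SD of log2 CPM plus 1 over the 19 had a median of 0.293 for all tested genes, 0.562 for those low in both and 1.14 for those high in both. Among genes of 100 to 1000 CPM it was 0.255 for all and 0.489 for the low genes. In those 2 classes, 124 of 126 and 93 of 93 low genes varied more than the median tested gene, and among genes of 3 to 10 CPM 33 of 34 high genes did. Over the 11235 genes with at least 3 CPM, this SD and the size of the difference had a rank correlation of 0.375 for CTRL replicate 1 and 0.392 for KO replicate 8.

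Part of that variation ran along the same line as the pair. In CTRL replicate 7 the 256 low genes had a median log2 difference of -1.12 and 98.8% of them lay below the median of the remaining 18, while the 93 high genes had a median of 1.16 and 92.5% lay above it. CTRL replicate 7 was the lowest of the 19 for 146 of the 256 low genes, and its differences had an r of 0.644 with the mean difference of the pair. Other libraries shared the high side with less or none of the low side. In KO replicate 1 the high genes had a median of 1.46, with 98.9% of them above, and the low genes a median of 0.061. For the high and low genes, KO replicate 4 had medians of 1.07 and -0.43, CTRL replicate 4 of 0.95 and -0.16, and KO replicate 7 of 0.94 and -0.12. After CTRL replicate 7, KO replicate 7 had the next highest r with the mean difference of the pair, at 0.381. KO replicate 1 held under 0.01% of its counts on W genes and CTRL replicate 7 held 0.221%. In the other libraries without W transcripts the high genes had medians of 0.21 (CTRL replicate 9), -0.30 (KO replicate 3), -0.19 (KO replicate 5), 0.17 (KO replicate 9) and -0.91 (KO replicate 10). Among the 13 W-holding libraries these medians ran from -0.91 in CTRL replicate 6 to 1.16 in CTRL replicate 7. A link of this lean to W transcripts was not tested.

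**Figure D5:**
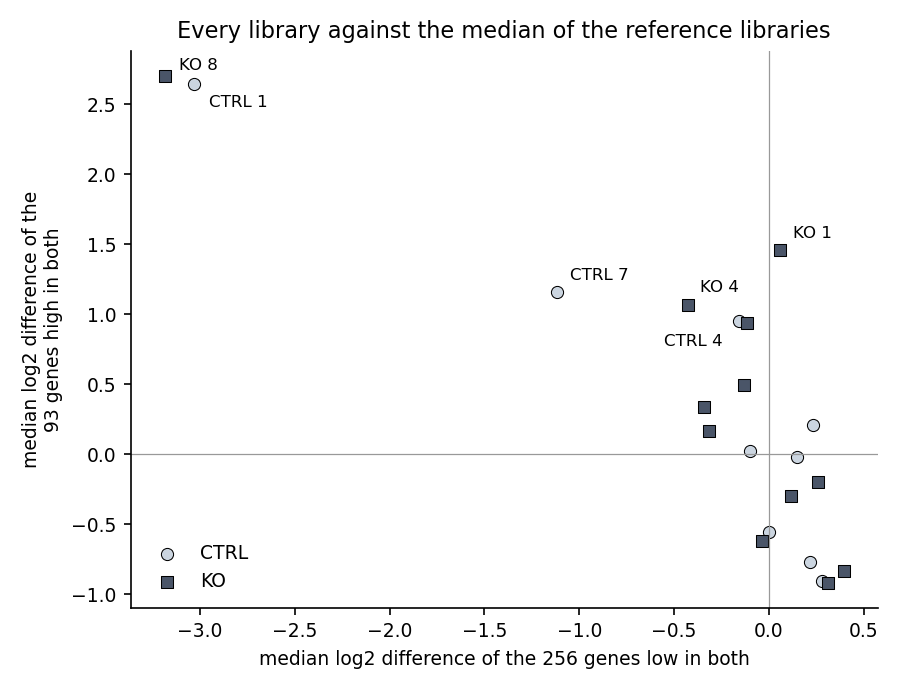
Median log2 difference of the 256 genes low in both (horizontal) and the 93 genes high in both (vertical) in each library, set against the median of the reference libraries, with circles for CTRL and squares for KO. CTRL replicate 1 (-3.03, 2.64) and KO replicate 8 (-3.19, 2.70), where the values are fixed by the choice of genes, are at the upper left. CTRL replicate 7 (-1.12, 1.16) is next on the horizontal axis and KO replicate 1 (0.061, 1.46) on the vertical axis.

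The pair's genes were then read in the comparison the study was designed for, KO against CTRL, without the pair. The libraries without W transcripts were split unevenly between the groups, being CTRL replicate 9 and KO replicates 1, 3, 5, 9 and 10. The main fit took no account of that. In the 8 CTRL and 11 KO libraries that remained, edgeR's quasi-likelihood test found 0 of 13805 genes (0.0%) at an adjusted p under 0.05, and DESeq2 found 0 too. At an unadjusted p under 0.05 there were 819 genes by edgeR, 377 higher in KO (2.73%) and 442 lower (3.2%), and 1117 by DESeq2. Of the 256 genes low in both, 5 were higher and 1 lower in KO at that unadjusted level, and their median log2 ratio was 0.03 against -0.01 for all tested genes. Of the 90 high genes tested here, 1 was higher and 0 lower, with a median of 0.08. No gene of either list passed the adjusted threshold. Without CTRL replicate 7 as well, an alternative added after its lean was seen, again 0 genes passed; the median of the low genes became -0.07, with 0 higher and 5 lower at the unadjusted level, and that of the high genes 0.37, with 5 higher and 0 lower. Other settings moved these medians too, to -0.05 for the low and 0.18 for the high genes with W transcripts as a covariate. With that covariate, edgeR's quasi-likelihood test left 462 genes at an unadjusted p under 0.05 and 0 past the adjusted threshold. With all 21 libraries the median of the high genes was -0.09, but that setting holds the pair whose values defined the list. Without the pair, the median of the low genes changed direction between settings. That of the high genes stayed positive, from 0.08 to 0.37, with no settled size. Neither median was tested.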

How the data were processed

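For the 21 libraries the authors deposited raw gene counts. Per the file headers, these were produced by featureCounts 2.0.1, which summed reverse-strand fragments over the exons of each gene of GRCg6a. STAR and DESeq2 are named in the submitters' processing notes without versions or settings. Of 24356 listed genes, 20966 had a count and 13809 passed filterByExpr of edgeR 4.0.16 (R 4.3.3). CPM used TMM-scaled library sizes, and 1 CPM was added before taking logs. Both libraries, the lists of genes and the measures were chosen with earlier results of these data known. Named genes were the first 2 of the low genes by median CPM in the 19 and the first 2 of the high genes by the lower CPM of both libraries. KO was tested against CTRL by the quasi-likelihood F test of edgeR, 2-sided, with Benjamini-Hochberg adjustment at 0.05, and with DESeq2 1.42.0 as an alternative. Both procedures were also run on simulated data with the same spread for all genes, and the outcome is not given here. Planned lists of markers of neural tube, neural crest, somite and muscle, blood, endothelium, notochord, surface ectoderm, heart and endoderm could not be used, because 0 gene IDs matched the RefSeq gene list given. The labels name no batch. The study's design speaks of embryos, but whether a library is a single embryo is not stated, so p-values measure the spread between these libraries. Alternatives were other pseudocounts, scalings, filters, folds, references and single libraries left out.

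The filter removed 7157 genes with a count. Of these, 11 would have been high in both libraries and 0 low in both, and the highest of their lower CPM values was 19.3. The rule that values lie outside the range of the 19 removed 6 low and 9 high genes that were 4-fold away in both.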

Additional observations from a re-analysis of the deposited data

Results flagged for a closer look

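Among the 9 CTRL libraries 17 measures were examined, and 8 of them had 1 library far from the nearest of the others; chance does this in about 1 group in 20, and several of these values measure the same thing. CTRL replicate 1 stood apart in its 326 low genes, its 186 high genes, the SD of 0.883 of its log2 differences, the sum of 5988 CPM over the genes high in both, the median difference of -3.03 over the genes low in both and the 543 CPM of ENSGALG00000029140. These values are of the kind that set the library apart, so they add nothing to that choice. CTRL replicate 9 stood apart with 0.00455% of its counts on W genes and 3.24% on Z genes. The check as set up here did not cover a group of 12 libraries, so the KO group, with KO replicate 8 in it, was not examined.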

How the results depend on the processing

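Against 256 genes low and 93 high in both libraries, a pseudocount of 5 CPM left 163 and 29, a 2-fold threshold gave 767 and 359, and an 8-fold threshold gave 112 and 12. The other 7 settings gave 241 to 345 low and 89 to 133 high genes, and leaving out each of the 19 libraries in turn gave 250 to 269 and 85 to 102. The correlation between both libraries was 0.766 to 0.834 over 8 settings and 0.778 to 0.789 with 1 library left out. With only the W-holding libraries as reference, 245 of the 256 low and 85 of the 93 high genes remained. ENSGALG00000015253 in CTRL replicate 1, at 7 counts, moved to -12.13 and -8.94 with pseudocounts of 0.25 and 5 CPM. No named gene changed direction in any of these settings.

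KO against CTRL gave 0 genes past the threshold in all 7 settings and without CTRL replicate 7. At an unadjusted p under 0.05 the 819 genes became 1357 without a filter, 462 with W transcripts as a covariate and 2309 with a replicate block by title numbers; the block by description numbers gave 900. The numbers were not taken to pair the libraries: in each numbering 5 of 7 same-numbered pairs correlated above 0.1, with lowest values of -0.393 and -0.256, and 2 and 3 libraries correlated best with their own number. Low counts limit genes under 3 CPM, which could not be called low.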
